A study of Mus musculus with 6 samples.

Results

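The genes described here are 34 chaperones, folding enzymes, stress sensors and degradation factors of the endoplasmic reticulum (ER), taken by symbol from a deposited table of 54232 genes. All 34 symbols were found, each in 1 row. They comprise 5 sensors and transcription factors, 11 chaperones and co-chaperones, 6 genes of disulfide exchange, 10 genes of ER-associated degradation and 2 subunits of the translocon. The libraries were made from poly(A) RNA of macrophages that had been grown from mouse bone marrow. There were 3 libraries from SIRPa knockout (KO) and 3 from wild-type (WT) C57BL/6 mice aged 8 weeks. All cultures were untreated and were grown for 7 days with 30% L929-conditioned medium, a source of colony-stimulating factor 1. SIRPa, a receptor of myeloid cells, binds CD47 and passes on an inhibitory signal. The labels do not say how the allele was made, whether the mice were littermates, or whether replicates were separate mice or cultures. A p-value here reflects only library-to-library spread, and that spread may be technical.

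Proteins bound for the cell surface, the lysosome or secretion enter the ER through the Sec61 channel and fold there with the help of chaperones and disulfide isomerases. Proteins that fail to fold are carried back to the cytosol and degraded. When unfolded proteins build up, the sensors IRE1 (gene Ern1), PERK (Eif2ak3) and ATF6 start the unfolded protein response. Its transcription factors, spliced XBP1, cleaved ATF6 and ATF4, then raise the genes for chaperones and degradation factors. Macrophages make large amounts of lysosomal enzymes and secreted proteins, which pass through the ER.

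Many of these genes carry a known ER stress element (ERSE) in the promoter, which ATF6 and XBP1 use together with NF-Y. Its letters are CCAAT and CCACG with 9 bases of any kind between them, searched on both strands of the RefSeq promoter windows of GRCm38.p6, from 250 bases before to 50 after each start. Windows were found for 28 of the 34 genes, Ero1lb under its present symbol Ero1b. The element was present for 9 of these 28 genes (32.1%), against 37 of all 27025 genes with a window (0.137%). The 37 include these 9. The members were chosen as genes of this response, so the shares here and below are descriptions and not tests. The stretches are shown because they hold the element through which ATF6 and XBP1 are known to act on such genes. Capitals mark CCAAT and CCACG, or their complements ATTGG and CGTGG where the match lies on the other strand. Each runs 5′ to 3′ on the gene's own strand with 10 bases of flank.
Hspa5 (chr2:34772015-34772053, plus strand): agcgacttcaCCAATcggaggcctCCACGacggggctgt
Hsp90b1, upstream match (chr10:86705628-86705666, minus strand): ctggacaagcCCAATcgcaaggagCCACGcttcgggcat
Hsp90b1, downstream match (chr10:86705523-86705561, minus strand): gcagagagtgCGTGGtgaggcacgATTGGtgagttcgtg
Canx (chr11:50325790-50325828, minus strand): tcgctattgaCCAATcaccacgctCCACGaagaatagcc
Dnajc3 (chr14:118937817-118937855, plus strand): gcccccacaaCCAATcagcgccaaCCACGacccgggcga
Creld2 (chr15:88819510-88819548, plus strand): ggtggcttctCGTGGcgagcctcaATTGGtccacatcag
Pdia6 (chr12:17266481-17266519, plus strand): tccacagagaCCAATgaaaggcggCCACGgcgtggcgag
Ero1lb (chr13:12565672-12565710, plus strand): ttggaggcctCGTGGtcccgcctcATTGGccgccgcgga
Syvn1 (chr19:6046522-6046560, plus strand): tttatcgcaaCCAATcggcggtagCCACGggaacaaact
Derl3 (chr10:75893232-75893270, plus strand): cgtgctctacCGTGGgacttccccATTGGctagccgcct

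The 10 matches lay 26 to 212 bases upstream of the RefSeq start. The related element ERSE-II, which is ATTGG and CCACG with 1 base between them, was also searched on both strands and was found in 2 of the 28 windows (7.14%) and in 0.0444% of all windows. It shares the letters CCACG with the ERSE, and capitals mark both parts. Counted from the RefSeq start as base 1, the Herpud1 match lay at -52 to -42. The Dnajb11 match lay at 8 to 18, downstream of the start.
Herpud1 (chr8:94386367-94386397, plus strand): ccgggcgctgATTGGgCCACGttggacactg
Dnajb11 (chr16:22857842-22857872, plus strand): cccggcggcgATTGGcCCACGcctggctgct
CCACG alone was in 22 of the 28 windows (78.6%) and in 35.5% of all windows. The XBP1 element core TGACGTGG, whose complement also contains CCACG, was in 0 of the 28 windows and in 0.714% of all windows. A match is a string of letters and not a measured binding site, and no match says only that the letters are not in this window. No windows were used for Atf6, Manf, Sec61a1, Derl1, Hyou1 and Hspa13.

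The targeted gene matched the labels. Sirpa stood at 2102, 2112 and 2010.4 normalized counts (reads divided by the authors' size factor for the library) in KO replicates 1, 2 and 3, against 110498, 114095 and 94737 in the WT replicates, which is 1.95% of the WT mean. Reads assigned to genes ran from 28653015 to 31401080 in KO and from 34102444 to 67446846 in WT. All 8 macrophage markers listed, Csf1r, Adgre1 and Lyz2 among them, were above 0 in every library. Their summed normalized count was 889562 to 1028677 in KO and 1012042 to 1206476 in WT. Most of this sum was Lyz2, with a mean of 697991 in KO and 808023 in WT. Of the 8 markers, 5 lay above WT and 3 below, with a median log2 fold change (KO over WT) of 0.0063. Of 8 neutrophil and progenitor markers 6 were above 0 in every library, with sums of 342 to 478 in KO and 283 to 599 in WT, while Ly6g was at 0. Dendritic cell markers summed to 192 to 210.2 in KO and 173 to 256 in WT, T and NK cell markers to at most 30.03 with Ncr1 at 0, and fibroblast markers to at most 13.0 with Lum at 0. The part of such cells in the results was not tested. In bulk RNA, fewer cells of a type and less RNA per cell cannot be told apart.

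The group of 34 genes did not separate the genotypes. With limma on log2(normalized count + 1), 0 of the 34 rose and 0 fell at an adjusted p under 0.05, where 0.00739% of 13527 genes tested, namely Sirpa, were called. All 34 passed the filter on low values. At an unadjusted p under 0.05 the count was also 0 of 34, against 1.52% of all tested genes. With edgeR on the recovered reads 0 of 34 were called and 0 had an unadjusted p under 0.05, against 0.00751% and 1.56% of all genes it tested. With DESeq2 both counts were also 0 of 34, against 0.00406% and 0.882%. The median log2 fold change, KO over WT, was 0.0050 over the 34 genes and -0.0062 over all tested genes. Of the 34, 17 lay above WT and 17 below. In the authors' deposited table, none (0 of the 34) had an adjusted p under 0.05.

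For 32 of the 34 genes the whole 95% interval was smaller than a 1.5-fold change either way, and the exceptions were Derl3 and Sec61b. This held for 69.1% of all tested genes and for 88.5% of those with a mean of at least 100 normalized counts. The KO and WT ranges overlapped for 32 of the 34. They did not overlap for Eif2ak3, higher in KO, and Derl3, lower in KO, where 4.66% of all tested genes did not overlap, 1.96% higher and 2.71% lower. The plot of fold changes by class shows every interval crossing 0.

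**Figure D1:**
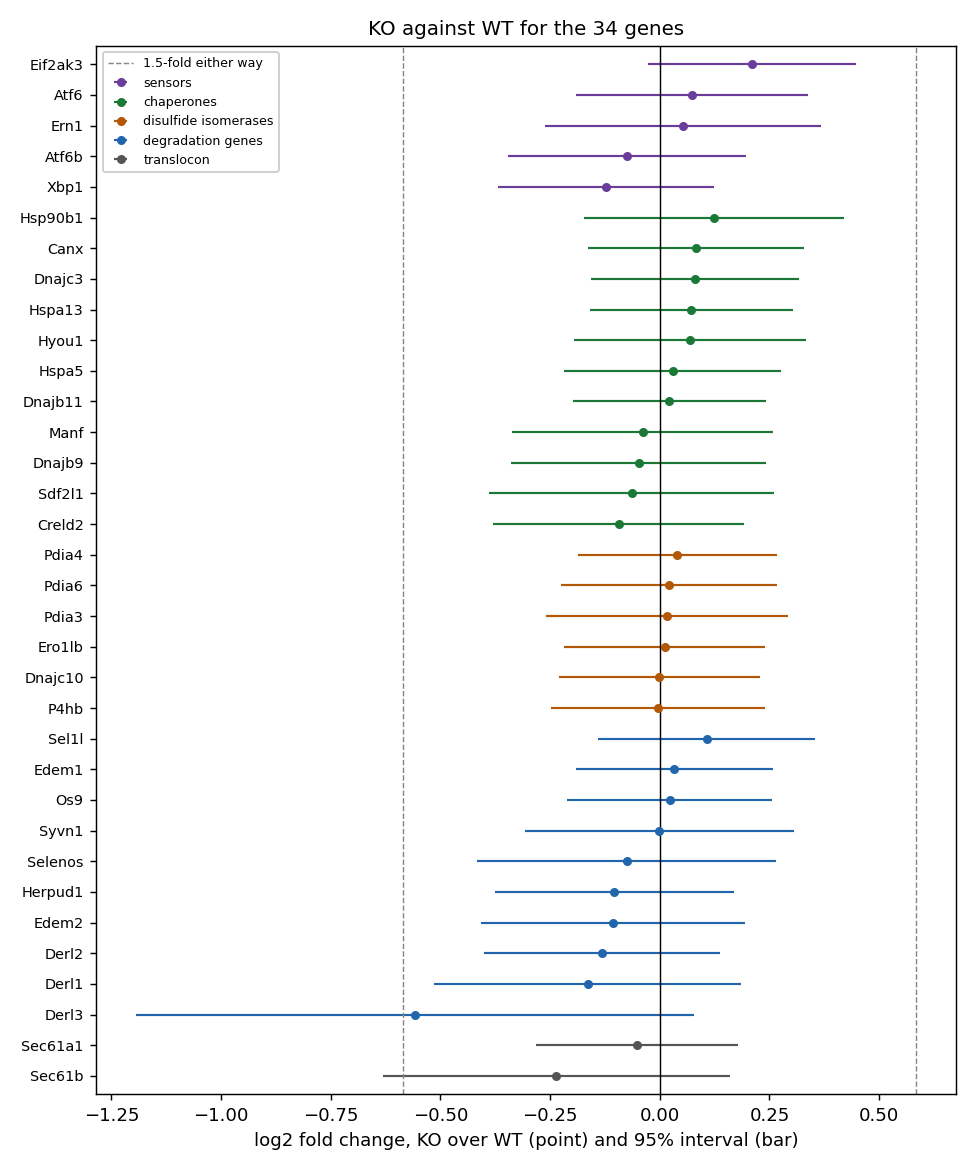
Log2 fold change of KO over WT (point) and its 95% interval from limma (bar) for the 34 genes, grouped and coloured by class, with dashed lines at 1.5-fold. All intervals include 0, and those of Derl3 and Sec61b pass the lower dashed line.

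Eif2ak3, the kinase PERK that phosphorylates eIF2alpha, had 1658, 1488 and 1657 normalized counts in KO and 1321, 1448 and 1380 in WT. All 3 KO values were above all 3 WT values, by a narrow gap between KO replicate 2 and WT replicate 2. The mean was 1601 ± 97.9 in KO and 1383 ± 63.5 in WT (SD, n = 3 each). Its log2 fold change of 0.21 (SE 0.11, 95% interval of the fold 0.982 to 1.36) did not pass limma (unadjusted p = 0.0755, adjusted p = 0.9998). With 3 libraries against 3, an exact two-sided permutation test cannot go below p = 0.1. Exons of an opposite-strand gene, Gm43292, cover 8.05% of its exon length, at a mean of 7.00 normalized counts.

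The other sensors overlapped between genotypes. Ern1, the kinase and RNase IRE1 that splices Xbp1 mRNA, had 1211, 1184 and 1526 normalized counts in KO and 1084, 1420 and 1272 in WT. KO replicate 3 and WT replicate 2 were the high libraries, 1 in each genotype. Xbp1, the spliced transcription factor, had 6518, 6697 and 5530 in KO and 6837, 6352 and 7162 in WT (log2 fold change -0.12, SE 0.11). KO replicate 3 alone was below the WT range. These are counts per gene, so the spliced and unspliced forms of Xbp1 mRNA were not analysed here. Atf6, a membrane-bound factor that is cleaved in the Golgi, had 10029, 8807 and 9420 in KO and 9119, 10084 and 7779 in WT. Its paralog Atf6b had 2517, 2663 and 2047 in KO and 2645, 2569 and 2359 in WT. In both, the WT range and the KO range overlapped. The median log2 fold change of the 5 sensors was 0.05, and it fell below 0 when WT replicate 1 (-0.040) or WT replicate 3 (-0.028) was left out.

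Among the chaperones 0 of 11 rose and 0 fell, and the genotypes overlapped for every one. Hspa5 encodes BiP, the Hsp70 of the ER that also holds the sensors inactive, and is the customary readout of ER stress. It stood at 45184, 45613 and 45501 normalized counts in KO and 48758, 42729 and 42369 in WT. The KO libraries lay close together and inside the WT range. Its mean was 45432 ± 222 in KO and 44619 ± 3589 in WT (SD, n = 3 each), and its fold of 1.02 had a 95% interval of 0.859 to 1.21 (limma, adjusted p = 0.9998). Hspa5 (ENSMUSG00000026864) spans positions 34771970 to 34777547 of chromosome 2 in GRCm38, plus strand, by GENCODE M21. This span begins before the RefSeq start used for the promoter window, so the Hspa5 stretch shown above lies inside it.

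Hsp90b1, the Hsp90 of the ER that folds integrins and Toll-like receptors, had 48167, 44927 and 54868 normalized counts in KO and 52182, 41907 and 41961 in WT. The high libraries were KO replicate 3 and WT replicate 1. Canx, the lectin chaperone calnexin of the ER membrane, had 32936, 30120 and 35046 in KO and 32511, 30746 and 29291 in WT, with KO replicates 3 and 1 highest. Their log2 fold changes were 0.12 (SE 0.13) for Hsp90b1 and 0.08 (SE 0.11) for Canx. Sdf2l1, a cofactor of BiP, ran the other way in the same library, with 4329, 4670 and 3192 in KO and 3859, 4119 and 4634 in WT. KO replicate 3 was thus the highest of the 6 libraries for Hsp90b1 and Canx and the lowest for Sdf2l1.

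The DnaJ co-chaperones, which hand clients to BiP and start its ATPase, showed small differences. Dnajb9 had 2475, 2222 and 2972 normalized counts in KO and 2732, 2341 and 2824 in WT. Dnajb11 was steady at 6745 ± 72.4 in KO and 6652 ± 453 in WT, and Dnajc3, which also inhibits PERK, was at 5810 ± 598 and 5476 ± 108 (SD, n = 3 each). Hyou1, the nucleotide exchange factor of BiP, was at 8034 ± 797 and 7658 ± 791. The secreted stress proteins Manf and Creld2 were at 4021 ± 184 and 1078 ± 132 in KO, and at 4173 ± 721 and 1147 ± 96.4 in WT. Hspa13, an Hsp70-like protein of the microsomes, was at 1966 ± 147 and 1867 ± 24.9. Over the 11 chaperones the log2 fold change ran from -0.09 for Creld2 to 0.12 for Hsp90b1, with 7 above and 4 below WT and a median of 0.03.

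The 6 genes of disulfide exchange had the lowest median spread of the 5 classes. Pdia3, the partner of calnexin that also belongs to the MHC class I loading complex, had 41846, 39999 and 44957 normalized counts in KO and 45604, 36372 and 43804 in WT. The KO values fell inside the WT range. P4hb, the classical protein disulfide isomerase, had 23804, 23734 and 20689 in KO and 22374, 21696 and 24278 in WT, with KO replicate 3 lowest. Pdia4 and Pdia6, isomerases that act with BiP, were at 6236 ± 364 and 10712 ± 1056 in KO against 6065 ± 381 and 10533 ± 638 in WT (SD, n = 3 each). Dnajc10, a DnaJ protein that reduces disulfides of clients on the way to degradation, was at 3153 ± 158 and 3158 ± 229. Ero1lb, an oxidase that recharges the isomerases, was at 2039 ± 92.5 and 2025 ± 118. The 6 log2 fold changes ran from -0.0039 to 0.04, and the median pooled SD between replicates was 0.095 on the log2 scale, against 0.14 for all 34 genes.

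Among the 10 degradation genes 0 rose and 0 fell. Derl1, a channel component of retrotranslocation, had 3790, 4130 and 2611 normalized counts in KO and 3861, 4050 and 3674 in WT. KO replicate 3 was far below the other 5 libraries, and the log2 fold change of -0.16 (SE 0.16) was 0.04 without it. Herpud1, an early target of the response that assembles the ligase complex, had 1540, 1669 and 1293 in KO and 1546, 1552 and 1720 in WT. Edem2, which trims mannose from misfolded glycoproteins, had 2129, 2270 and 1616 in KO and 2023, 2168 and 2222 in WT. In both, KO replicate 3 was again below all others. The median log2 fold change of the 10 degradation genes was -0.09, with 3 above and 7 below WT, and without KO replicate 3 it was 0.018.

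The core genes of the HRD1 ligase were not called, and their KO and WT ranges overlapped. Syvn1, the ubiquitin ligase HRD1 itself, had 2221, 2492 and 1895 normalized counts in KO and 2239, 2486 and 1889 in WT, nearly the same 3 values in each genotype. Its partner Sel1l was at 10468 ± 437 in KO and 9754 ± 1071 in WT, the lectin Os9 at 11312 ± 538 and 11151 ± 907, and Edem1 at 17961 ± 367 and 17574 ± 1029 (SD, n = 3 each). Derl2, a paralog of Derl1, was at 2117 ± 184 and 2324 ± 267, and 2.87% of its exon length overlaps exons of Mis12 on the opposite strand, which had a mean of 1977. Selenos, a selenoprotein that recruits the p97 ATPase, had 2515, 2618 and 3270 in KO and 3317, 2353 and 3226 in WT. Its 3 high libraries were KO replicate 3 and WT replicates 1 and 3.

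Derl3, the derlin known for secretory cells such as plasma cells, was near the floor of the measurement. It had 20.02, 20.6 and 21.7 normalized counts in KO, which are 16, 18 and 18 reads, and 26.1, 28.2 and 40.7 in WT, which are 24, 29 and 76 reads. All KO values were below all WT values. The log2 fold change of -0.56 (SE 0.29, 95% interval of the fold 0.437 to 1.06) did not pass limma (unadjusted p = 0.0797, adjusted p = 0.9998), and without WT replicate 3 it was -0.37. Of plasma cell transcripts, Jchain and Mzb1 were at most 2.29 normalized counts in any library, while Sdc1 had 981, 869 and 650 in KO and 946, 1140.1 and 1045 in WT. The Sdc1 ranges overlapped through KO replicate 1, and the part of such cells in the Derl3 value was not tested.

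The translocon subunits completed the set. Sec61b, the beta subunit of the protein channel, had 1172, 1344 and 891 normalized counts in KO and 1279, 1103 and 1624 in WT, so that the extremes were the replicates numbered 3 of each genotype. Its log2 fold change was -0.24 (SE 0.18, 95% interval of the fold 0.646 to 1.12), and leaving out 1 library at a time gave -0.37 to -0.07, with -0.07 when KO replicate 3 was dropped and -0.09 when WT replicate 3 was. Sec61a1, which forms the pore, was at 5306 ± 413 in KO and 5492 ± 256 in WT (SD, n = 3 each; log2 fold change -0.05).

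**Figure D2:**
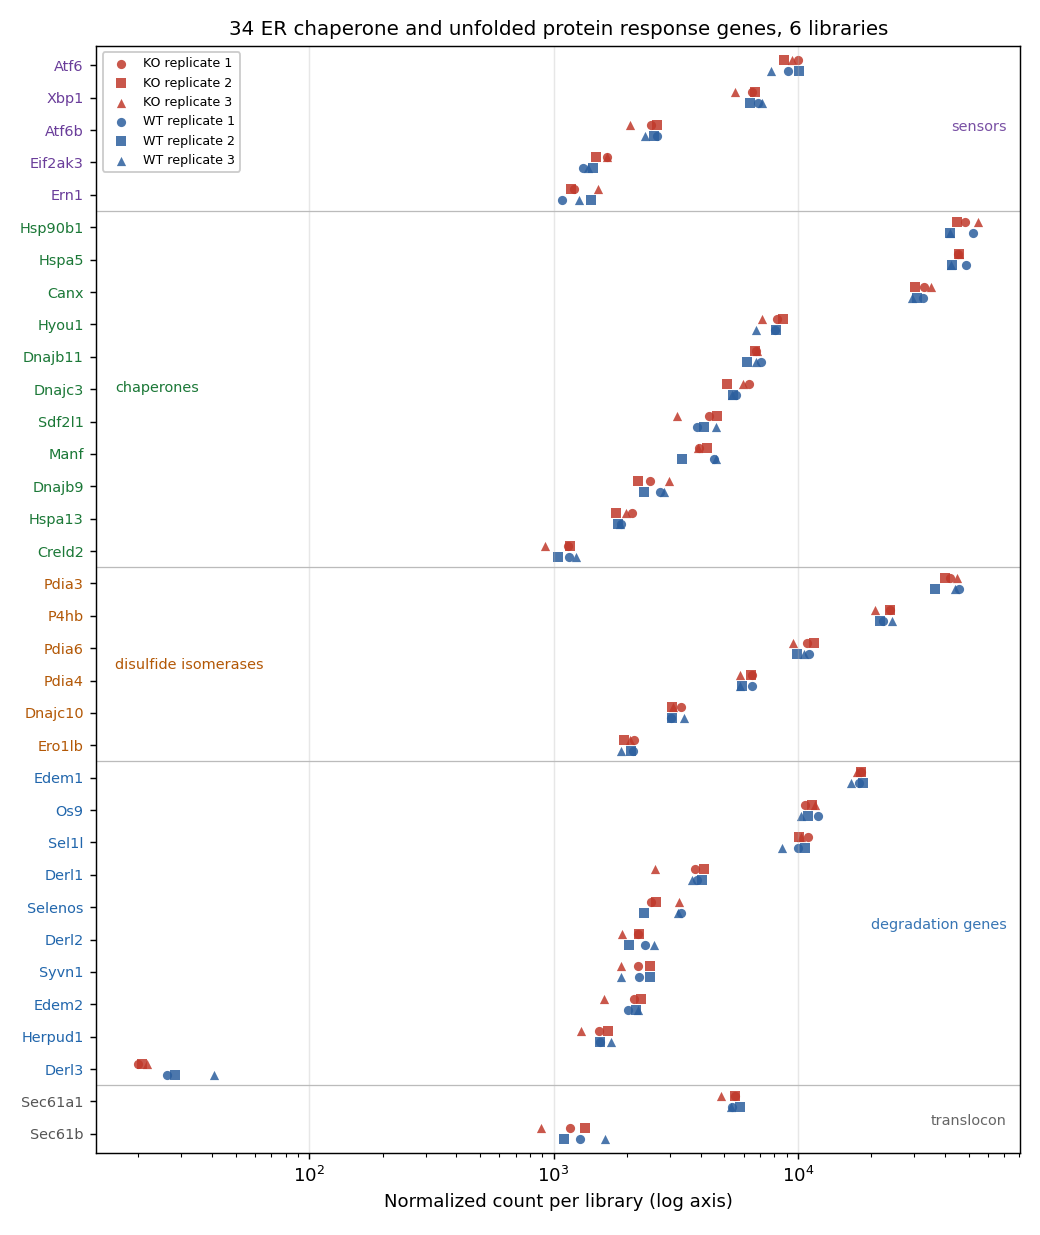
Normalized count on a log axis of each of the 34 genes in the 3 KO (red) and 3 WT (blue) libraries, marker shape giving the replicate number and label colour the class. The genotypes overlap for all but Eif2ak3 and Derl3, and KO replicate 3 (red triangle) stands to the left for Derl1, Edem2, Sdf2l1 and Sec61b.

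Per kilobase of merged exons in GENCODE M21, the highest mean normalized counts were those of Pdia3 at 13411, Hsp90b1 at 11740, Hspa5 at 10647, P4hb at 7956 and Canx at 6771. The soluble folding machinery of the lumen and calnexin thus led the group. The sensors Eif2ak3 at 248 and Ern1 at 157 per kilobase were near the bottom, and Xbp1 at 2006 was the highest of the sensor class. Derl3 was last at 13.1 per kilobase. On this scale 13 of the 34 genes were in the top 10% of tested genes. Merged exons can be longer than the transcript in use, which lowers a value per kilobase.

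**Figure D3:**
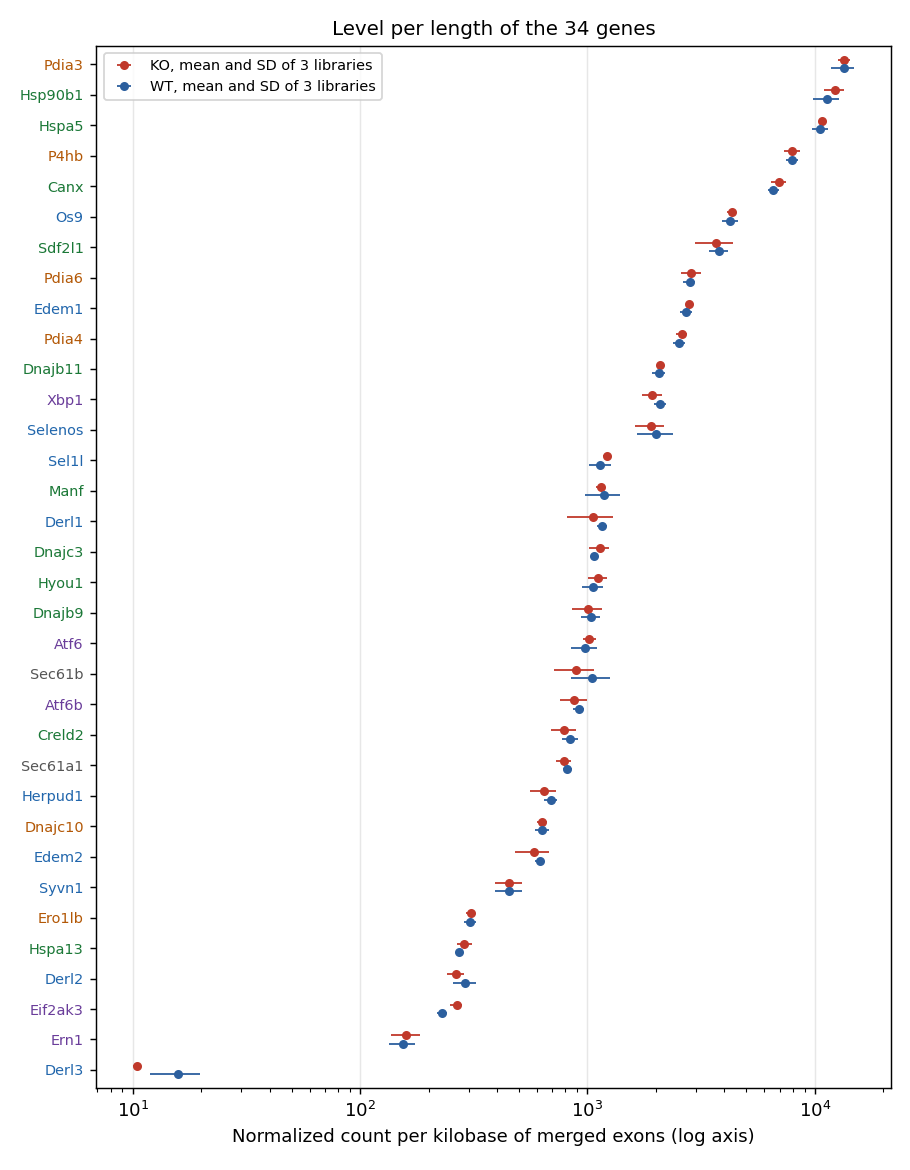
Normalized count per kilobase of merged exons on a log axis, KO and WT mean (points) with SD of 3 libraries (bars), genes in order of level and label colours by class as in the plot by library. Pdia3, Hsp90b1 and Hspa5 lead and Derl3 is lowest, in both genotypes.

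Together the 34 genes took 0.929%, 0.904% and 0.931% of all normalized counts in KO and 0.923%, 0.857% and 0.873% in WT. The ranges overlapped, with WT replicate 1 inside the KO range. Hsp90b1, Hspa5 and Pdia3 made up 39.0% to 43.7% of that sum. The median pooled SD between replicates was 0.14 on the log2 scale for the 34 genes, against 0.16 for all tested genes with a mean of at least 100. For 31 of the 34 the highest library was less than 1.5-fold above the lowest, a share not computed for all tested genes. Of the 33 members with a mean of at least 100, Creld2 was the lowest at 1113 normalized counts. Spread was not compared at matched levels.

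KO replicate 3 was the lowest library for 12 of the 34 genes and the highest for 4, against 27.2% and 25.2% of all tested genes. The 12 had a median transcript GC content of 53.6%, and the 4, which were Ern1, Hsp90b1, Canx and Dnajb9, had 42.1%. Among the 34 genes the deviation of KO replicate 3 from the 6-library mean had a Spearman rho of -0.62 with GC content, and that of KO replicate 2 a rho of 0.60. Over 13514 tested genes with a GC value these were -0.38 and 0.42, in the same directions. The rho is a description, since all genes of a library share its preparation. For the 17 genes above the median GC of tested genes, the median deviation of KO replicate 3 was -0.21, and for the 17 at or below it 0.03.

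A quadratic GC trend was removed from each library, an alternative chosen after seeing the data. The median replicate SD of the 34 genes went from 0.14 to 0.12, and that of all tested genes from 0.19 to 0.18. The SD became smaller for 19 of the 34 genes, against 8075 of the 13527 tested genes. Removing the trend left 0 of 34 called, with a smallest unadjusted p of 0.0611 by limma, and log2 fold changes from -0.53 to 0.22. KO replicate 3 was then the lowest library for 14 of the 34 genes and the highest for 3, against 3719 and 2881 of the 13527 tested genes.

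**Figure D4:**
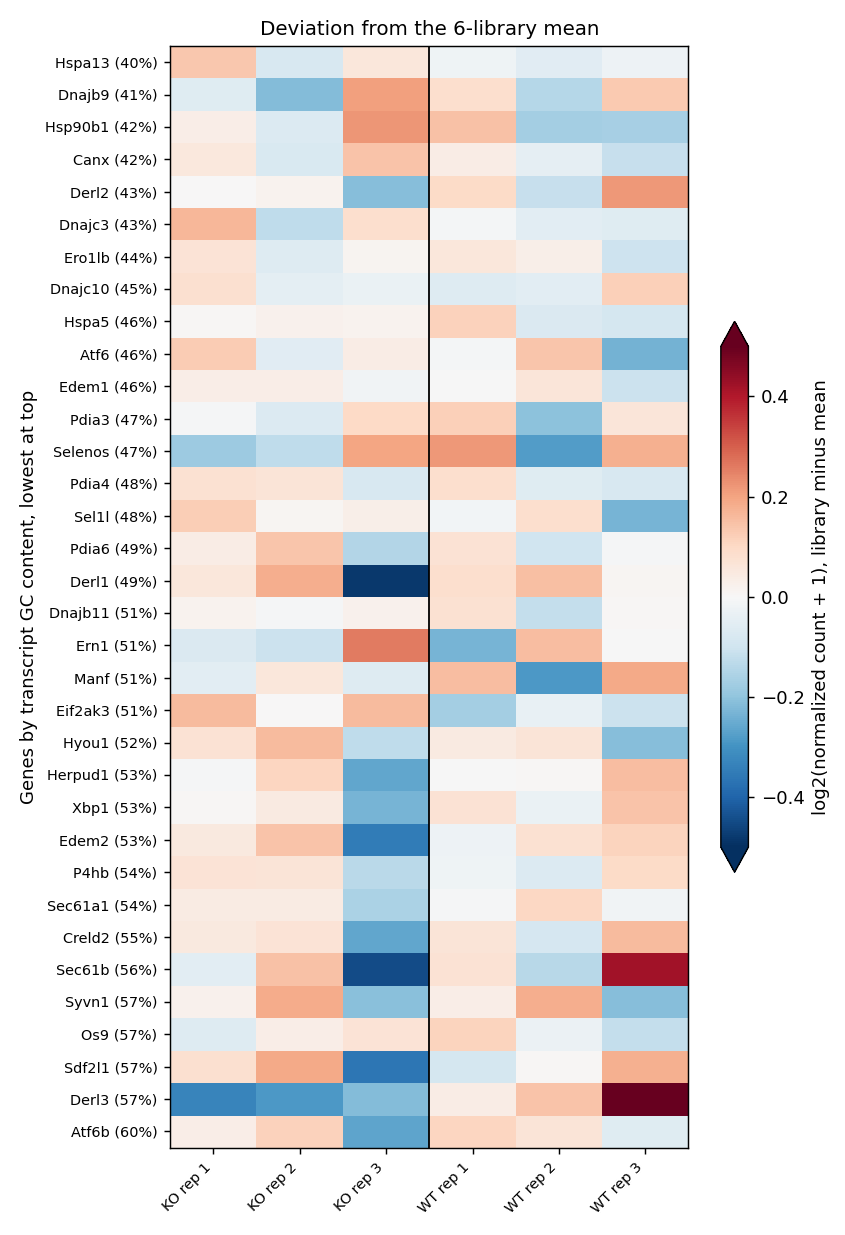
Deviation of each library from the 6-library mean on the log2(normalized count + 1) scale, for the 34 genes ordered by GC content of the longest transcript (percent beside the name). KO replicate 3 is mostly blue (low) among the GC-rich genes at the bottom and mostly red among the GC-poor genes at the top, while KO replicate 2 runs the other way.

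The 9 members with a match had a median log2 fold change of 0.02 (range -0.56 to 0.12), 6 above and 3 below WT, and the 19 with a window but no match had a median of -0.0039, 8 above and 11 below. The difference between these sets was not tested. Of all 37 genes with the element 17 were tested by limma and 0 had an unadjusted p under 0.05. Their median was 0.06, and 12 of the 17 lay above WT, against 48.2% of all tested genes. Beyond the members these included Calr, the soluble lectin chaperone calreticulin, with 77197, 77911 and 96909 normalized counts in KO and 88454, 72055 and 71572 in WT. KO replicate 3 and WT replicate 1 were the high libraries, the same as for Hsp90b1.

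Other genes of the pathway were likewise not called. Of 13 genes listed for the ATF4 and CHOP arm 0 rose and 0 fell. Their median log2 fold change was -0.07, with 5 above and 8 below WT. The list also holds Eif2ak1, Eif2ak2 and Eif2ak4, kinases of eIF2alpha other than PERK. The log2 fold changes of these kinases, 0.04, 0.0017 and 0.12, were among those above WT. Atf4, the transcription factor of the arm, had 6204, 7580 and 5917 normalized counts in KO and 8494, 7179 and 8156 in WT. WT replicate 2 lay below KO replicate 2, so the groups overlapped. The log2 fold change of -0.28 (SE 0.12) had an unadjusted p of 0.0454 and an adjusted p of 0.9998 by limma. Ddit3, which encodes CHOP, had 540, 723 and 482 in KO and 696, 764 and 525 in WT. Chac1, a glutathione-degrading target of the arm, had 32.5, 32.1 and 12.1 in KO and 34.8, 38.8 and 36.4 in WT, without overlap. The gap between KO replicate 1 and WT replicate 1 was narrow, and KO replicate 3 was far the lowest. At a mean of 31.1 normalized counts, its log2 fold change of -0.63 (SE 0.37) had a limma unadjusted p of 0.124.

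Further lists gave medians near that of all genes. Of 19 other ER folding genes 0 rose and 0 fell (median -0.04), with Uggt1, the glucosyltransferase that checks glycoprotein folding, at log2 fold change 0.23 (limma unadjusted p = 0.0701), Prdx4 at -0.24 and Ppib at -0.14. Of 17 other degradation genes 0 rose and 0 fell (median 0.0036), with Edem3 at 0.18, Rnf5 at -0.11 and Vcp, the p97 ATPase, at 0.11. Of 15 other translocation genes 0 rose and 0 fell (median -0.03), with Ssr2 at -0.23, Ssr4 at -0.21 and Spcs1, of the signal peptidase, at -0.20. WT replicate 3 was the highest library for 8 of these 15 (26.2% of all tested genes). KO replicate 3 was the lowest for 13 of the 19 other folding genes and for 7 of the 13 genes of the ATF4 and CHOP arm, against 27.2% of all tested genes. Of 10 regulators of the response 0 rose and 0 fell (median -0.02), with Traf2 at -0.26, Map3k5 at 0.19 and Creb3 at -0.16. Of 12 tested cytosolic heat shock genes 0 rose and 0 fell (median 0.05). Among them Hspa1b, a stress-inducible Hsp70, had 25.0, 29.8 and 24.1 normalized counts in KO and 39.1, 50.5 and 32.6 in WT. Its ranges did not overlap (limma unadjusted p = 0.0514). Hspa1a of the same list had 27.5, 45.8 and 20.5 in KO and 36.9, 49.5 and 23.0 in WT, with overlap. Both were low, with means of 33.5 for Hspa1b and 33.9 for Hspa1a. Hspd1 and Hspa4 had log2 fold changes of 0.12 each.

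Members near the targeted locus were few. Of the 34 genes 4 lie on chromosome 2 with Sirpa, namely Hspa5, Dnajc10, Pdia3 and Edem2, and the nearest is Pdia3 at 8.15 Mb. The log2 fold change of Pdia3 was 0.02 (SE 0.12).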

How the data were processed

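The submitters' processing notes list the tools CASAVA 1.4, STAR 2.5.1b, DESeq2 1.22.2 and featureCounts 1.6.0 and the build GRCm38, while the design text in the labels names FastQC 0.10.1 and TopHat 2.0.10. The sources used here do not give which aligner made the table, the strand setting or the annotation. Exons of 10 members overlap another gene, by at most 10.3% of their length (Hsp90b1). The deposited library columns hold a signal: per the values, reads per gene scaled by the authors with 1 factor for each library. All positive values (100%) were whole multiples of 1 step within 0.001 reads, so whole reads were recovered. The authors' table also holds, for each gene, a p-value, a score (the Wald statistic) and a log2 fold change.

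The test was limma 3.58.1 (R 4.3.3) with an intensity trend on log2(value + 1), a scale that shrinks fold changes where counts are few. Genes needed at least 10 normalized counts in at least 3 libraries, and Benjamini-Hochberg adjustment ran over 13527 genes at a threshold of 0.05. On recovered reads edgeR 4.0.16 (quasi-likelihood) called 1 of 13311 genes and DESeq2 1.42.0 called 1 of 24603. The members and lists were chosen with earlier results of these data known, and no list was tested as a set. Named genes were Sirpa, all members and the 3 genes with the smallest p of each further list. Calr, Alg12, Esp15 and Zfp57 were named for their promoter match, Hspa1a beside Hspa1b, and marker genes for their lists. Eif2ak1, Eif2ak2 and Eif2ak4 were named as the kinases other than PERK in their list. 1 marker is not reported here. GENCODE M21 gave exon lengths, GC content (longest transcript) and coordinates. Scripts were tested on simulated counts. Replicates differed beyond sampling noise (a chi-square of at least 13.4 for each degree of freedom). Assigned reads ran from 28653015 to 67446846 per library, and every WT library had more than every KO library. The part of depth in the differences was not tested. Alternatives are listed at the end.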

Additional observations from a re-analysis of the deposited data

How the results depend on the processing

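Under all 18 alternatives 0 of the 34 members and 1 gene in all were called. These were pseudocounts of 0.1 and 10, no filter, a minimum of 50, TMM and median scaling, no trend, edgeR, DESeq2, the replicate block, each library left out, and the GC trend removed alone or with the block. At an unadjusted p under 0.05 the member count was 0 in each, except 1 (Derl3) without the trend. Single log2 fold changes were computed under 17 of these, without the GC trend and block together, and Derl3 gave no value at the minimum of 50. Over them 12 of the 34 genes kept their sign and 22 did not. When each library was left out, medians of the log2 fold change ran from -0.03 to 0.03 for the members, -0.040 to 0.14 for sensors, -0.00061 to 0.08 for chaperones, -0.03 to 0.05 for disulfide exchange, -0.13 to 0.018 for degradation and -0.23 to -0.03 for the translocon, with 0 members and 1 gene called each time. The cause was not tested. The labels do not say whether the replicate numbers pair the libraries. Same-numbered libraries had correlations of deviations of 0.01, 0.31 and 0.13. Differently numbered libraries had -0.26 to 0.15, the highest being KO replicate 3 with WT replicate 1. Whether the numbers mark a pairing was not tested. With the replicate block 0 members and 1 gene were called. Depth limits Derl3, at 16 to 76 reads a library.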

Other observations

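The ratio of Hyou1 to Hspa5 normalized counts was 0.177 ± 0.0175 in KO and 0.172 ± 0.0170 in WT, and that of Herpud1 to Hspa5 was 0.0330 ± 0.0042 and 0.0362 ± 0.0045 (SD, n = 3 each). The ratio of Sdf2l1 to Hspa5 was 0.0958, 0.102 and 0.0701 in KO and 0.0791, 0.0964 and 0.109 in WT, lowest in KO replicate 3 and highest in WT replicate 3. These pairs were chosen after the values of the genes had been seen.

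Of the 37 genes with the ERSE letters in the promoter window, 9 were members and 1, Calr, was in another list of the pathway. Alg12, a mannosyltransferase of the ER, was among the others, with a mean of 471 normalized counts and a log2 fold change of 0.26 (limma unadjusted p = 0.0785). That p was the smallest of the 8 tested genes with the letters outside the members. Log2 fold changes of these 8 ran from -0.45 to 0.34, with 6 above WT and a median of 0.09. Esp15 and Zfp57, which also carried the letters, were at 0 in all 6 libraries.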
